A study of Mus musculus with 5 samples.

Results

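The genes described here are the TLE family and the co-repressor partners it works with: Tle1, Tle2, Tle3, Tle4, Tle6, Hdac1, Hdac2, Hdac3, Ctbp1 and Sin3a. They were taken by symbol, not by a cut on their values, from an expression table of haematopoietic stem cells (HSCs). These genes, and the lists used below, were chosen with earlier results of these data known. All 10 were present among 11643 genes, and all 10 had the mean of at least 1 FPKM that a gene needed to be tested, as did 10570 genes in all. FPKM counts sequenced fragments per transcript length and library size, so levels of different genes can be compared.

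RNA came from bone marrow HSCs of mice on a C57BL/6 background, sorted for absent lineage markers, c-Kit, Sca-1 and CD150, and against CD48. There were 3 control libraries and 2 from mice labelled Tle1/3/4-deficient, called deficient libraries below, in which floxed Tle1, Tle3 and Tle4 were targeted by Vav-Cre, a recombinase expressed across blood cells. The sources used here give neither age nor sex, and do not say which alleles the controls carry. Nor do the labels say whether each library is a separate animal, so p-values measure the spread between libraries, which may be technical.

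TLE proteins, the mammalian relatives of Drosophila Groucho, do not bind DNA themselves. Transcription factors such as RUNX, TCF/LEF and HES proteins bring them to DNA, where they repress transcription and recruit histone deacetylases. Tle1, Tle2, Tle3 and Tle4 encode the full-length proteins, and Tle6 encodes a divergent relative. HDAC1 and HDAC2 are paired deacetylases of the SIN3, NuRD and CoREST complexes, HDAC3 is the deacetylase of the NCoR/SMRT complex, SIN3A is a scaffold for HDAC1 and HDAC2, and CTBP1 is a separate co-repressor that also works with deacetylases.

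Column totals were 599137 to 683822 FPKM. Read totals are unknown. From few low values, with 12.3% to 34.0% of the low genes at the commonest ratio, the depth of the other libraries was 1.11 to 1.46 times that of control replicate 1. The 10 stem cell sort and identity genes on the marker list (Kit, Ly6a, Slamf1 and 7 others) were all above 0 in every library. Their sum was 693 to 822 FPKM in the controls and 560.3 and 415 FPKM in deficient replicates 1 and 2. Kit, the c-Kit receptor of the gate, was at 165, 185 and 149 FPKM in the controls against 102 in each deficient library, and Slamf1, encoding CD150, at 14.9, 24.0 and 21.1 against 31.8 and 31.0. Ly6a, encoding Sca-1, was at 57.8, 96.3 and 199 FPKM in the controls, 155 in deficient replicate 1 and 14.0 in deficient replicate 2, the lowest of the 5. The 10 granulocyte markers summed to 563 to 3037 FPKM in the controls and to 11143 and 66369 in deficient replicates 1 and 2, with none at 0. In bulk RNA, fewer cells of a type and less RNA per cell cannot be told apart.

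Of the 3 targeted genes, Tle3 stood against its label. Control replicates 1, 2 and 3 held 2.48, 4.97 and 5.61 FPKM, and the deficient libraries 32.3 and 31.6 FPKM. Every deficient library was above every control, and the mean of the deficient libraries (32.0 ± 0.554 FPKM, SD, n = 2) was 7.34 times that of the controls (4.35 ± 1.65 FPKM, SD, n = 3). On log2(FPKM + 1) the difference was 2.68 (SE 0.58, 95% interval 1.33 to 4.02). Its unadjusted p of 0.00197 was the 48th smallest of 10570, and after adjustment over all tested genes it missed the threshold (limma, adjusted p = 0.424). Every direction below therefore refers to the libraries as labelled. A gene-level value can include exons outside the floxed part, so the level of a targeted gene does not report on its deletion.

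Of the 10 granulocyte markers, 7 were also above every control in those 2 libraries, beside 10.2% of all tested genes. None of the 10 passed the threshold (limma, lowest adjusted p = 0.387). S100a8, a neutrophil alarmin, was at 222, 1657 and 1086 FPKM in the controls versus 7679 and 37600 FPKM in the deficient libraries. S100a8 and the marker sum were several times higher in deficient replicate 2 than in deficient replicate 1. Tle3 was nearly equal in those 2 libraries, and the part of granulocytes in its level was not tested. The 3 markers whose groups overlapped were the granule protease genes Elane and Ctsg and the peroxidase gene Mpo. Ctsg was at 0.0825, 0.294 and 0.168 against 0.294 and 305 FPKM. Elane was at 1.01, 35.0 and 36.2 against 0.985 and 1293 FPKM and Mpo at 6.25, 41.7 and 11.8 against 1.15 and 958 FPKM, so both were lowest in deficient replicate 1 and highest in deficient replicate 2. Without deficient replicate 2, the log2 difference of Tle3 was 2.69. The 7 measured platelet markers summed to 430.2 to 1078 FPKM in the controls and 7981 and 3495 FPKM in the deficient libraries, and most of that was Pf4, a platelet chemokine, at 839, 512 and 255 against 7503 and 3023 FPKM. Of the 7, 4 were above every control in both deficient libraries (Pf4, Itga2b, Gp5 and Gp9), beside 10.2% of all tested genes. Ppbp, Vwf and Gp1ba overlapped, the last with a negative log2 difference (-0.46). The 6 measured erythroid markers summed to 17.9 to 37.4 against 104 and 523 FPKM. Of the 6, 3 were above every control (Klf1, Epor and Car1), beside the same 10.2%, and Alas2 was at 0 in control replicate 1.

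The 5 markers of monocytes, macrophages and dendritic cells had overlapping sums (27.0 to 113.5 against 58.4 and 160.4 FPKM), in which H2-Aa, an MHC class II gene, was the largest part in the controls. Of the 5, 2 were above every control, beside 10.2% of all tested genes. Csf1r, the receptor for macrophage colony-stimulating factor, was at 0.0177, 0.032 and 0.0241 against 1.73 and 11.3 FPKM. Adgre1, encoding the macrophage antigen F4/80, was at 0, 0.0579 and 1.14 against 8.76 and 7.80 FPKM. With control means of 0.0246 and 0.398 FPKM, both reached the 1 FPKM needed for testing only through the deficient libraries. No p-value is therefore given for either, and the count of 2 is not read as a result. Adgre1 was nearly equal in the 2 deficient libraries, as was H2-Aa at 45.1 and 42.0 FPKM. Csf1r was not, nor were Itgam (2.72 and 56.2 FPKM) and Cd68 (0.112 and 43.0 FPKM). Cd68, Itgam and H2-Aa overlapped. The 3 lymphoid markers measured summed to 48.8 to 59.5 FPKM in the controls and 16.4 and 119 FPKM in the deficient libraries, and none separated the groups. Cd79a was at 0 in control replicate 1 and deficient replicate 1, and Cd68 in control replicate 2. The part of other cell types in the Tle3 level was not tested.

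Tle4 was at 5.67, 0.0129 and 5.29 FPKM in the controls, against 0.353 and 0.203 in the deficient libraries. Both deficient libraries lay far below control replicates 1 and 3, but control replicate 2 was the lowest of all, so the groups overlapped. The log2 difference was -1.45 (SE 1.06, 95% interval -3.92 to 1.01, limma adjusted p = 0.726), and -2.34 without control replicate 2 (adjusted p = 0.712). A drop of this kind in 1 control was common: 451 tested genes (4.27%) were under 0.1 FPKM there while both other controls had at least 1 FPKM. The same held for 479 genes (4.53%) in control replicate 1 and 146 (1.38%) in control replicate 3. The SD of Tle4 among the controls, 1.55 on the log2 scale, exceeded that of 91.2% of tested genes, where the median gene had 0.526.

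Tle1 was low throughout, at 1.83, 0.811 and 3.33 FPKM in the controls and 2.84 and 4.37 FPKM in the deficient libraries. The deficient libraries were not below the controls, and control replicate 3 lay between them. The log2 difference was 0.69 (SE 0.79, 95% interval -1.15 to 2.54, limma adjusted p = 0.83). Of the targeted genes, then, only Tle4 was lower in the deficient libraries than in most controls, and none differed from the controls past the threshold.

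**Figure D1:**
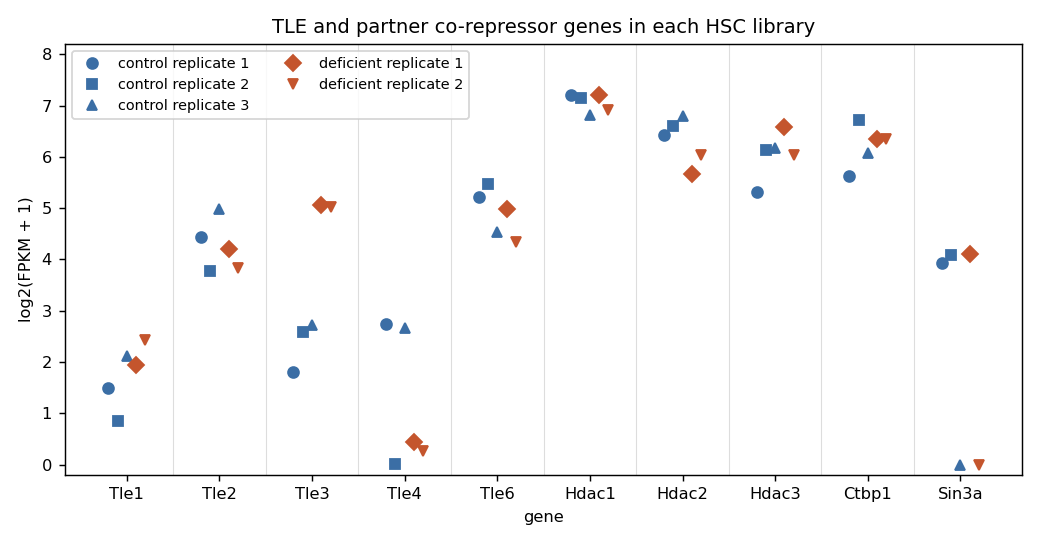
Expression of each gene in each library as log2(FPKM + 1), with controls in blue and deficient-labelled libraries in orange. Tle3 is above every control in both deficient libraries, Hdac2 is below every control, and Sin3a sits at 0 in control replicate 3 and deficient replicate 2.

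The promoters of Tle3 and Tle4 are shown because these targeted genes had the largest positive and negative differences among the 10. Each is the 250 bases before the annotated start in RefSeq (GRCm38.p6), 5′ to 3′ on the gene's strand, with CACGTG in capitals. Tle3 lies at chr9:61372116-61372365 on the plus strand, and the Tle4 window, the first of 2 annotated starts, at chr19:14598184-14598433 on the minus strand. The FPKM table itself holds no coordinates.
Tle3: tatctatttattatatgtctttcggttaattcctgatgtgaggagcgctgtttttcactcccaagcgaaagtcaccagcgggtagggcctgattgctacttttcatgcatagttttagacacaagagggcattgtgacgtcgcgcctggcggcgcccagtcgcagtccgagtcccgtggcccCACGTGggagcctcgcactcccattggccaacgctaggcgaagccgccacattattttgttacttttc
Tle4: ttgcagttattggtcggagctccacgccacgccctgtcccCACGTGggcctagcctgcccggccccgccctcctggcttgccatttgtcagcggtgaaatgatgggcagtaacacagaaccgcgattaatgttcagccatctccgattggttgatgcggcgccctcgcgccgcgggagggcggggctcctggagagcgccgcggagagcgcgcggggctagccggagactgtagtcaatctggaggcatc

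CACGTG is the E-box that proteins such as HES, MYC and USF can bind. It reads alike on both strands, and it began 68 bases before the start of Tle3 and 210 bases before that of Tle4. It occurred in 3 of the 11 promoter windows of the 8 genes matched (Tle1, Tle2, Tle3, Tle4, Tle6, Hdac2, Ctbp1 and Sin3a), the third being at Tle6, against 6.02% of 32851 windows of this length. The RUNX core TGTGGT, in either orientation, occurred at Hdac2 alone among the 11 (14.0% of all windows), and the TCF/LEF core CTTTGA (13.8%) and TATAAA (12.4%) in none. CpG dinucleotides were dense: 10 of the 11 windows exceeded the all-promoter median observed-to-expected ratio of 0.373, with 0.992 at Tle3, 0.904 at Tle4 and 0.949 at Tle1. The exception was the second annotated start of Tle6, at 0.051. These matches are a description of the reference sequence and say nothing of binding.

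Of Tle1, Tle2, Tle3 and Tle4, Tle2 was the highest in every control, at 20.8, 12.6 and 30.5 FPKM. It was at 17.5 and 13.2 FPKM in the deficient libraries. The deficient values lay inside the control range. The log2 difference was -0.38 (SE 0.51, 95% interval -1.58 to 0.82, limma adjusted p = 0.861). Tle6 had the highest control mean of the TLE genes, at 36.4, 43.4 and 22.2 FPKM, and was at 30.4 and 19.3 FPKM in the deficient libraries, again overlapping. Its log2 difference was -0.42 (SE 0.44, 95% interval -1.45 to 0.61, adjusted p = 0.81). Tle2 and Tle6 are neighbours on opposite strands, next to Tle5, and their RefSeq gene models overlap each other. No source used here says whether counting used strand, so reads of the overlap may be shared between the pair. Tle5, the short TLE protein once named Aes, was not analysed here.

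The groups differed in which gene supplied most of the summed FPKM of Tle1, Tle2, Tle3 and Tle4. Gene-level values do not show whether transcripts of the targeted genes are full-length in the deficient libraries, or which cells they come from. Tle1, Tle2, Tle3 and Tle4 summed to 30.8, 18.4 and 44.7 FPKM in the controls (31.3 ± 13.2, SD, n = 3) and to 53.0 and 49.3 FPKM in the deficient libraries (51.2 ± 2.64, SD, n = 2). Tle2 supplied 67.5%, 68.5% and 68.2% of that sum in the controls but 33.0% and 26.7% in the deficient libraries. Tle3 supplied 8.08%, 27.0% and 12.5% in the controls and 61.0% and 64.0% in the deficient libraries, the largest share there. Tle4 supplied 18.4%, 0.0702% and 11.8% in the controls and 0.667% and 0.413% in the deficient libraries, and Tle1 at most 8.86% in any library. The 3 targeted genes alone summed to 9.98, 5.79 and 14.2 FPKM in the controls and to 35.5 and 36.1 FPKM in the deficient libraries. With Tle6 included, the family total was 61.8 to 67.1 FPKM in the controls and 83.4 and 68.6 FPKM in the deficient libraries. These sums and shares were not tested. A higher Tle3 lowers the share of Tle2 without any change in Tle2, whose own level overlapped between the groups. Leaving out each library in turn, the difference in the sum of Tle1, Tle2, Tle3 and Tle4 was 13.4 to 26.6 FPKM, against 19.9 with all 5.

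**Figure D2:**
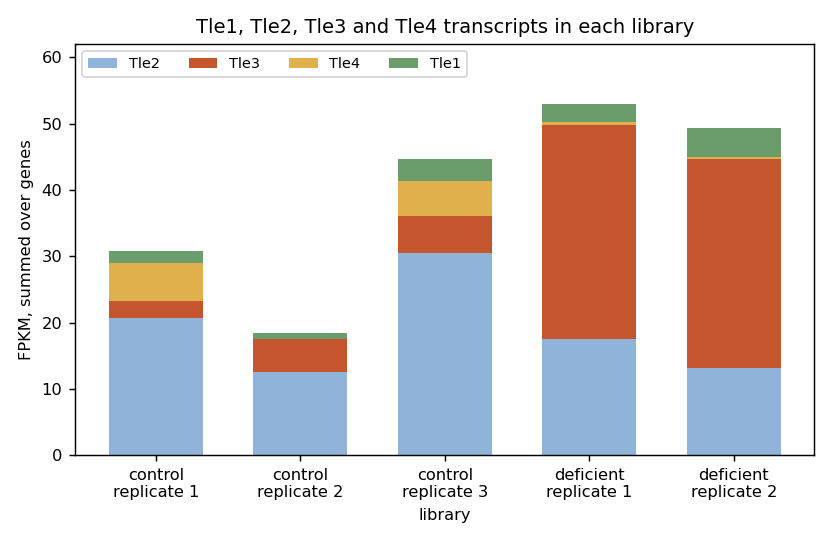
FPKM of Tle1, Tle2, Tle3 and Tle4 stacked for each library. Tle2 is the largest part in the 3 controls, at 67.5% to 68.5%, and Tle3 the largest in both deficient-labelled libraries, at 61.0% and 64.0%.

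Among the deacetylases, Hdac2 was lower in the deficient libraries. It was at 84.6, 95.6 and 111 FPKM in the controls, against 49.5 and 64.7 in the deficient libraries, so every deficient library lay below every control. The control mean was 1.70 times the deficient mean. The log2 difference was -0.76 (SE 0.30, 95% interval -1.44 to -0.07). With an unadjusted p of 0.0352, it missed the threshold after adjustment over all tested genes (limma, adjusted p = 0.548). The granulocyte marker sum was higher in both deficient libraries (11143 and 66369 against 563 to 3037 FPKM). The stem cell marker sum was lower in both (560.3 and 415 against 693 to 822 FPKM). The part of either in the Hdac2 level was not tested.

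Hdac1, the close paralogue of Hdac2, overlapped between the groups. It was the most abundant of the 10 genes in every library, at 147, 140.3 and 112 FPKM in the controls and 146 and 119 FPKM in the deficient libraries. The difference was -0.0013 on the log2 scale (SE 0.27, 95% interval -0.64 to 0.63, limma adjusted p = 0.999), and 0.13 after median-of-ratios scaling. That scaling moves the median of all tested genes from -0.10 to 0.015, so no direction is given for Hdac1. The ratio of Hdac1 to Hdac2 FPKM, chosen after the values were seen, was 1.73, 1.47 and 1.01 in the controls and 2.95 and 1.84 in the deficient libraries. The intervals of the 2 genes overlap, and the difference between them was not tested.

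Hdac3 was at 39.0, 69.2 and 71.4 FPKM in the controls, against 94.8 and 64.8 in the deficient libraries. Deficient replicate 1 was the highest of the 5, and replicate 2 lay inside the control range. The log2 difference was 0.43 (SE 0.38, 95% interval -0.45 to 1.32, limma adjusted p = 0.765). Summed, the 3 deacetylases came to 270.2, 305 and 293 FPKM in the controls and 290.3 and 248 FPKM in the deficient libraries. The share from Hdac2 was 31.3%, 31.3% and 37.7% in the controls and 17.0% and 26.1% in the deficient libraries.

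Ctbp1 was at 48.2, 104.6 and 66.7 FPKM in the controls, against 80.9 and 79.9 in the deficient libraries, which thus lay inside the control range. Its log2 difference was 0.21 (SE 0.37, 95% interval -0.67 to 1.08, limma adjusted p = 0.91). Without control replicate 1 the sign turned, at -0.054. Sin3a was at 14.3 and 16.0 FPKM in control replicates 1 and 2 and 16.2 FPKM in deficient replicate 1, and was listed at 0 in control replicate 3 and deficient replicate 2. Where Sin3a had a value, the libraries of both groups were close. No source used here says what an exact 0 in this table stands for. Such zeros were not rare: 691 tested genes (6.54%) were listed at 0 in at least 1 library while another had at least 10 FPKM. At 0 in the same 2 libraries as Sin3a, and in no other, were 27 genes. No fold is given for Sin3a, whose test (adjusted p = 0.937) rests on those zeros.

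Of the 10 genes, 0 passed the threshold in either direction (limma, adjusted p under 0.05), where 0.00946% of all tested genes passed upward and 0.00946% downward, 1 gene each. At an unadjusted p under 0.05 there were 2, Tle3 upward and Hdac2 downward, against 3.26% of all tested genes upward and 5.18% downward. The groups did not overlap in 1 of 10 upward (Tle3) and 1 of 10 downward (Hdac2), against 10.2% and 15.9% of all tested genes. These last counts are near the shares of all genes. Leaving out a library makes overlap rarer by construction: the count in either direction, 2 of 10 against 26.1% of all tested genes with every library, was 2 without control replicate 1 (38.5% of all), 5 without control replicate 2 (38.3%) and 4 without control replicate 3 (37.6%). It was 4 without deficient replicate 1 (55.1% of all) and 4 without deficient replicate 2 (55.5%). Under median-of-ratios scaling (26.1%) and quantile normalization (26.4%) it was 3. Tle3 and Hdac2 were among the genes each time, which is fixed in advance where a library is left out. None of these counts is read as a result about the 10. Positive log2 differences numbered 4 and negative 6, with a median of -0.19, against -0.10 over all tested genes.

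**Figure D3:**
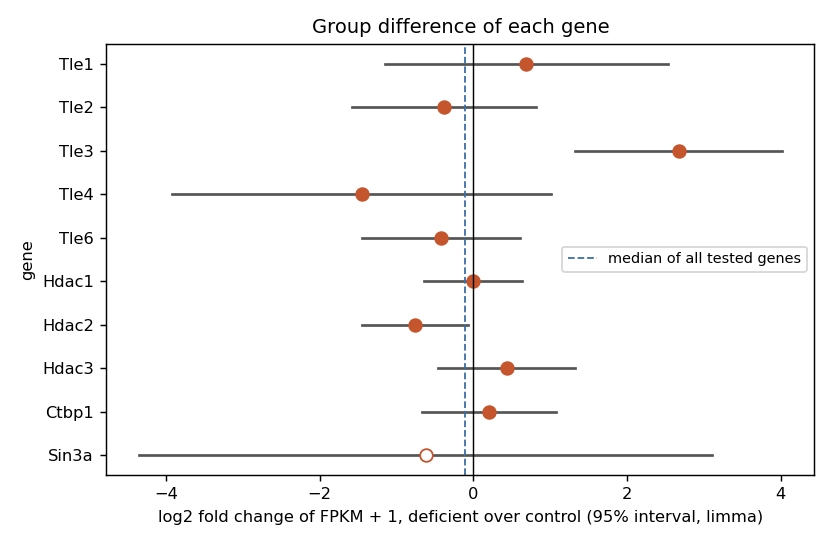
Log2 fold change of FPKM + 1, deficient over control, with the limma 95% interval of each gene; the open circle marks Sin3a, listed at 0 in 2 libraries, and the dashed line the median of all tested genes (-0.10). The intervals of Tle3 (1.33 to 4.02) and Hdac2 (-1.44 to -0.07) exclude 0 before adjustment, and the other 8 include it.

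Ordered by control mean, and leaving out Sin3a, the genes ran Hdac1 (133 ± 18.7 FPKM), Hdac2 (96.9 ± 13.0), Ctbp1 (73.1 ± 28.8), Hdac3 (59.9 ± 18.1), Tle6 (34.0 ± 10.8), Tle2 (21.3 ± 8.95), Tle3 (4.35 ± 1.65), Tle4 (3.66 ± 3.16) and Tle1 (1.99 ± 1.27; SD, n = 3). Neighbours that differed by less than the larger of their SDs were Hdac2 and Ctbp1, Ctbp1 and Hdac3, Tle3 and Tle4, and Tle4 and Tle1. The control mean of Hdac1 was above that of 92.8% of tested genes, and that of Tle1 above 7.99%. In the deficient libraries Tle3 moved to the fifth place (32.0 ± 0.554 FPKM), next to Tle6 (24.8 ± 7.88, SD, n = 2), from which it differed by less than the SD of Tle6. Hdac2 (57.1 ± 10.8) stood there after Ctbp1 (80.4 ± 0.714) and Hdac3 (79.8 ± 21.2). The deacetylases and Ctbp1 were above all TLE genes in all 5 libraries.

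Genes with profiles most like those of Tle3 and Tle4 were found by the Euclidean distance between centred log2(FPKM + 1) values over the 5 libraries. For Tle3 the nearest 5 of all tested genes were Ccl9 (distance 0.537), Mt1 (0.595), Adgre1 (0.673), Klf5 (0.716) and Olfr248 (0.72), against a median distance of 3.39. Ccl9 encodes a chemokine, Mt1 a metallothionein and Klf5 a zinc finger transcription factor, and Adgre1 is the macrophage marker described above. Mt1 was at 13.0, 16.5 and 17.9 FPKM in the controls versus 148 and 133 FPKM in the deficient libraries (limma, adjusted p = 0.066), and the other 4 were listed at 0 in control replicate 1. Ccl9 (0, 1.655 and 1.09 FPKM in the controls), Olfr248 (0, 0 and 0.111 FPKM) and Adgre1 reached the mean needed for testing only through the deficient libraries. Their likeness to Tle3 is thus partly set by the filter and is not read as a result. For Tle4 they were Bend5 (0.338), Pvrl4 (0.35), Echdc3 (0.357), Tubb4a (0.369) and Frs3 (0.384), against a median of 2.91. All of these were at 3.81 FPKM or more in control replicates 1 and 3 and at 0.0617 FPKM or less in the other 3 libraries. They thus reached the mean needed for testing only through control replicates 1 and 3. None of the other co-repressor genes stood near: Tle1 ranked 1002nd from Tle3, and Tle2 ranked 564th from Tle4.

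The wider co-repressor machinery was read from 8 lists of other genes, 50 of whose 68 symbols were tested; the list of the short TLE form had none tested. None passed the threshold (limma, adjusted p under 0.05). At an unadjusted p under 0.05 there were 0 of 50 upward and 2 downward, against 3.26% and 5.18% of all tested genes, shares at which 2 of 50 is no result about the lists. The 2, named after their values were seen, were Suds3, a SIN3 subunit, at 15.2, 18.7 and 20.4 against 7.28 and 4.83 FPKM (adjusted p = 0.505), and Rnf6, a ubiquitin ligase of TLE3, at 29.0, 36.5 and 28.2 against 14.4 and 17.4 FPKM (adjusted p = 0.584). Positive differences numbered 21 and negative 29, with a median of -0.11 against -0.10 for all tested genes. The groups did not overlap in 3 of the 50 upward and 7 downward, beside 10.2% and 15.9% of all tested genes.

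Of 12 tested SIN3 complex genes, 6 were positive and 6 negative (median -0.13). Sin3b, the paralogue of Sin3a, was at 59.6, 79.8 and 96.1 FPKM in the controls, against 104 and 129 in the deficient libraries, above every control (log2 difference 0.58, adjusted p = 0.659). Rbbp7, a histone-binding subunit shared with NuRD, was at 275, 215 and 259.6 FPKM in the controls versus 127 and 206 FPKM in the deficient libraries, below every control (-0.62, adjusted p = 0.621). Of the 7 NuRD genes, 4 were positive and 3 negative (median 0.24). The methyl-CpG-binding family member Mbd3 was at 70.5, 51.4 and 63.1 against 59.2 and 25.9 FPKM and Mta3 at 48.2, 19.9 and 16.6 against 28.3 and 34.6 FPKM, both overlapping.

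The NCoR/SMRT list, the partners of Hdac3, had 1 positive and 4 negative of 5 (median -0.16). Its scaffold Ncor1 was at 39.9, 30.1 and 17.4 FPKM in the controls versus 35.1 and 22.0 FPKM in the deficient libraries (log2 difference 0.0098, adjusted p = 0.997). Gps2, another subunit, was at 68.2, 77.8 and 83.1 against 73.7 and 55.9 FPKM. Of 8 CtBP and CoREST genes 2 were positive and 6 negative (median -0.52). Its most abundant was Hmg20b, at 32.4, 67.3 and 56.7 against 37.5 and 81.3 FPKM. Other histone deacetylases had 1 positive and 4 negative of 5 (median -0.78), with Hdac8 at 22.5, 29.95 and 12.3 against 12.7 and 9.34 FPKM and Hdac10 at 16.5, 44.7 and 24.7 against 46.9 and 34.1 FPKM.

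Factors that modify Groucho proteins had 5 positive and 3 negative of 8 (median 0.30). Vcp, a segregase, was even across the libraries, at 178, 193 and 172 against 166 and 179.9 FPKM. Csnk2b, the regulatory subunit of casein kinase 2, was at 82.7 and 171 FPKM in control replicates 1 and 2 and 104 and 124 in the deficient libraries, and was listed at 0 in control replicate 3. Of TLE-recruiting factors 5 of 12 were tested, 2 positive and 3 negative (median -0.077). Runx1 was at 19.9, 15.7 and 42.2 against 23.5 and 21.5 FPKM and Hhex at 59.6, 119 and 85.1 against 31.5 and 64.5 FPKM (adjusted p = 0.976 and 0.622). Chosen after their values were seen, Runx2 lay below every control, at 11.1, 17.75 and 10.5 against 6.88 and 3.16 FPKM, and Runx3 above every control, at 6.79, 5.61 and 9.47 against 14.8 and 13.6 FPKM. Neither passed (limma, adjusted p = 0.625 and 0.69).

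**Figure D4:**
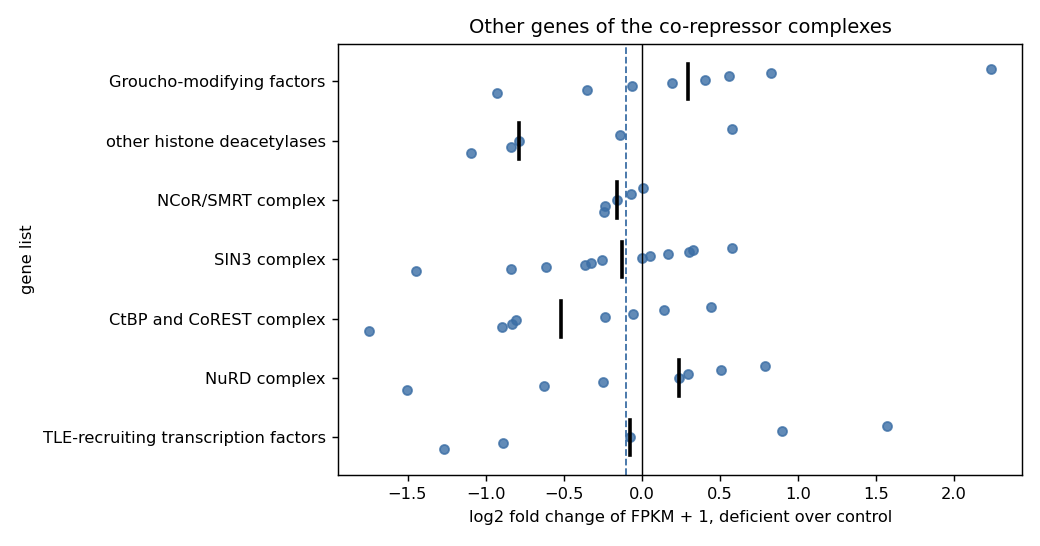
Log2 fold change of FPKM + 1, deficient over control, of each tested gene (points) on the 7 lists of other co-repressor genes with tested members, with list medians as black bars and the median of all tested genes (-0.10) as a dashed line. Every list has points on both sides of the dashed line, and the point farthest to the right is Csnk2b, listed at 0 in control replicate 3.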

How the data were processed

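The authors deposited FPKM per gene symbol in 1 table. Per the submitters' processing notes, the build was mm9 and the tools included TopHat and edgeR. No source used here gives their versions or roles, the annotation or the filters. Since FPKM is relative to a library's total, very abundant genes lower the rest.

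Columns were matched to samples by the name in each title. Genes whose mean over the 5 libraries reached 1 FPKM entered limma 3.58.1 as log2(FPKM + 1) (R 4.3.3; group as the only term, eBayes with trend, two-sided, Benjamini-Hochberg over 10570 genes, threshold 0.05). This scale understates changes of low genes. Relative depth came from ratios of values under 0.3 FPKM, within 0.5%. The test was checked on simulated data. Alternatives covered pseudocount, filter, scaling, variance model, weights, replicate block and leaving out each library. A run without genes listed at 0 was added after seeing the data.

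The genes and lists were chosen with earlier results of these data known. Named are the 10 genes, the 2 most abundant of each list or any past the threshold, the 5 nearest profiles to Tle3 and Tle4, and Kit, Ly6a, Slamf1, S100a8 and Elane. Some genes the rule names are left out. Other genes on the lists, such as Csf1r, Klf1, Suds3 and Runx2, are named outside this rule, with their values known. Promoters were matched by symbol in RefSeq. Python 3.11.15, pandas 2.3.3 and matplotlib 3.10.9 were used.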

Additional observations from a re-analysis of the deposited data

How the results depend on the processing

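Under the 16 alternatives, none of the 10 genes and none of the partner list genes passed the threshold. Tle3 stayed positive in all 16 (log2 difference 1.998 to 2.93, adjusted p 0.213 to 0.694), Hdac2 negative in all 16 (-0.95 to -0.57, adjusted p 0.488 to 0.786) and Tle4 negative in the 15 that tested it (-2.34 to -0.63). Tle1, Tle2, Tle6 and Hdac3 also kept their signs. These counts of signs are not evidence of robustness. The filter and variance model settings leave a gene's log2 difference unchanged. The groups of Tle3 and Hdac2 did not overlap, so no pseudocount and no omitted library can turn their signs. Hdac1 turned positive with median-of-ratios scaling (0.13), quantile normalization (0.013) and array weights (0.075), and ran from -0.15 to 0.15 when each library was left out. Sin3a was at 0.22 with array weights and at -2.67 to 1.43 with a library left out, and Ctbp1 at -0.054 to 0.50. The cause was not tested.

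Genes past the threshold over the whole table, 2 as reported, numbered 0 with a pseudocount of 0.1, with no filter or with array weights, 1 without trend, 4 with a pseudocount of 5, with median-of-ratios scaling or without genes listed at 0, and 5 with robust fitting. With a library left out they numbered 0 to 5 (0 without control replicate 2 or deficient replicate 2, 5 without control replicate 3). Groups failed to overlap in 2 to 5 of the 10 genes with a library left out, where 37.6% to 55.5% of all tested genes did, and in 3 under either scaling (26.1% and 26.4%). With the replicate block 22 genes passed, again none of the 10. Replicate 3 exists only among the controls, so the block gives the same log2 differences as leaving out control replicate 3 (Tle3, 2.85 in both). The replicate numbers are not known to pair libraries: deviations of same-numbered libraries correlated across genes at 0.035 and 0.0069. Leaving out a deficient library leaves 1, assumed to vary like the controls. With 2 deficient libraries and unknown depth, intervals are wide, and a missed threshold does not show equal levels.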
